A study of Mus musculus with 2 samples.

Results

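The genes described here code for the nuclear-encoded parts of the mitochondrial respiratory chain and of ATP synthase. They were chosen by symbol: names that start with Ndufa, Ndufb, Ndufc, Ndufs or Ndufv (complex I), Sdha to Sdhd (complex II), names that start with Uqcr (complex III), Cycs (cytochrome c), names that start with Cox4i, Cox5, Cox6, Cox7 or Cox8 (complex IV) and names that start with Atp5 (complex V). The rule found 90 genes of the 22072 gene symbols in the deposited tables, 42 in complex I, 4 in complex II, 8 in complex III, 1 for cytochrome c, 18 in complex IV and 17 in complex V. It also takes in 6 genes that are not themselves subunits. These are the complex I assembly factors Ndufaf1 to Ndufaf4, and Atp5s and Atp5sl, which are counted with complex V by symbol alone. The rule reads symbols only and uses no measured value.

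RNA came from lower molar mesenchyme of mouse embryos of a mixed background strain at embryonic day 14.5. The control group was Osr2+/-, so it carried 1 mutant allele, and the mutant group was Osr2-/-. Tissue was cut from frozen sections by laser capture, samples of 3 pairs were combined before RNA extraction, and each genotype is represented by 1 amplified RNA-seq library. Every difference below is therefore a difference between 2 libraries with no replicate check, no test across embryos was possible, and fewer cells of a type and less RNA per cell cannot be told apart. RNA of Y-linked genes was found in the control library and was at 0 or nearly 0 in the mutant library. Effects of the sex of the embryos and of genotype therefore cannot be told apart in any ratio below. The zinc-finger protein made from Osr2 regulates transcription in tooth mesenchyme. The comparison asks what changes in the molar mesenchyme when both copies are mutant.

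Osr2 itself stood at 38.7 RPKM in the control library and 9.16 RPKM in the mutant library, 4.23-fold lower, where RPKM counts reads for each kilobase of a transcript and corrects for library depth. Which part of Osr2 the mutant allele lacks is not stated in the sources used here. Coverage put the control at about 5.38 M mapped reads and the mutant at 34.3 M, a 6.38-fold difference in depth, so the control limits the precision. Among 7 dental mesenchyme markers the summed level was 352 RPKM in the control and 284 in the mutant, all 7 were at 1 RPKM or more in a library, and no defining marker was listed at 0. Among the marker lists of other cells, those of dental epithelium summed to 35.5 and 49.8 RPKM (9 genes), erythroid cells to 1022 and 809 (6 genes) and endothelium to 26.4 and 21.0 (5 genes). Macrophage, skeletal muscle and neural lists summed to between 2.2 and 4.92 RPKM in either library. The part of these cell types in the ratios below was not tested.

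Complex I takes electrons from NADH, complex II takes them from succinate, and both pass them through ubiquinone to complex III. Cytochrome c carries them on to complex IV, which reduces oxygen, and the proton gradient built on the way drives complex V to make ATP. A few subunits of complexes I, III, IV and V are encoded by mitochondrial DNA and were not analysed here; all subunits of complex II are nuclear. Because the complexes are assembled in fixed proportions from many nuclear genes, their promoters have long been studied for shared regulators, among them NRF1, the ETS-family factor GABP and YY1.

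Promoter windows of 300 bases, from 250 before to 50 after each start site, were taken from RefSeq on GRCm38.p6 and matched 75 of the 90 genes (83.3%), 3 of them by an older symbol. The letters searched on both strands, with overlaps allowed, were GCGC, any 2 bases and GCGC again for NRF1, CCGGAAG for the ETS family, AAGATGGC for YY1 and TATAAA for the TATA box. The stretches of 200 bases before the start site shown here were picked for holding a match: in each complex, the gene with the highest control level among those with the NRF1, ETS or YY1 letters inside that stretch, to show where the letters lie. Genes at higher levels, such as Atp5b, Cox7c and Uqcr10, had no match of these patterns in their windows, and that of Atp5o lay outside the stretch. Capitals mark the NRF1 and ETS letters, the latter often on the opposite strand as CTTCCGG. All 5 lie on the minus strand and read 5′ to 3′ towards the start: Ndufb4 of complex I at chr16:37654369-37654568, Sdha of complex II at chr13:74350241-74350440, Uqcrh of complex III at chr4:116075071-116075270, Cox6a1 of complex IV at chr5:115348959-115349158 and Atp5h of complex V at chr11:115419920-115420119.
Ndufb4: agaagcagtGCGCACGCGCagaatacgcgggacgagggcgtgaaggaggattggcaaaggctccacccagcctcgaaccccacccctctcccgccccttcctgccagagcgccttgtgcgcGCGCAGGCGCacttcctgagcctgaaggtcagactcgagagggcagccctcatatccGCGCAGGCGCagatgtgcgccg
Sdha: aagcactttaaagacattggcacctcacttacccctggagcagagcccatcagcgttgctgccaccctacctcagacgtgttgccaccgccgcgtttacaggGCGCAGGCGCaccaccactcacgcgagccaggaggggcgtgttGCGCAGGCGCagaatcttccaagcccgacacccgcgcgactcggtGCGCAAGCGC
Uqcrh: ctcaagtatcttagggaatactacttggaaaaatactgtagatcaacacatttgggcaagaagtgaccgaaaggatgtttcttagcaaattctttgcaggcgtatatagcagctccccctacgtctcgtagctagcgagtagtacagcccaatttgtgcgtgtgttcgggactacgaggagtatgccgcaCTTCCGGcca
Cox6a1: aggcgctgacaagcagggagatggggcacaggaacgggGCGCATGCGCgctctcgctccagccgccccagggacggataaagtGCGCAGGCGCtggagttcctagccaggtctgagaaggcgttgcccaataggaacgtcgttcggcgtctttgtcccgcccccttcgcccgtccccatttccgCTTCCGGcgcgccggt
Atp5h: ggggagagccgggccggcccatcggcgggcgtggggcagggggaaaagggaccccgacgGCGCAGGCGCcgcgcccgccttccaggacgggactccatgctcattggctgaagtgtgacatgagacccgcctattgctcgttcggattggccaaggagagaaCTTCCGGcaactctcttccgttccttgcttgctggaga

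The NRF1 letters occurred 3 times in the Ndufb4 stretch, starting 191, 79 and 22 bases before the start site, and 3 times in that of Sdha, starting 98, 55 and 10 bases before it. Cox6a1 had them at 162 and 117 bases with the ETS letters at 16, and Atp5h had 1 of each, at 141 and 38 bases. In the Uqcrh stretch the ETS letters stood alone, 10 bases before the start site. The window of Cycs held neither these letters nor those of YY1.

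Over the matched genes, 20 of 75 (26.7%) held the NRF1 letters, against 16.7% of 6946 expressed genes and 7.0% of all 27025 genes in the table. The genes called expressed here passed the same level filter as below and were matched by exact symbol. All 75 were counted among them, including a few that did not pass. The YY1 letters were found in 11 (14.7%), against 5.79% and 3.19%. The ETS letters were found in 17 (22.7%), a share close to the 21.6% of expressed genes, and TATAAA in 7 (9.33%, against 8.22% and 15.7%). Of the genes with TATAAA, Cox7b2 and Cox8b were at 0 in both libraries. Among the matched respiratory chain genes that passed the filter, 5 held TATAAA and 67 did not. At least 1 of the NRF1, ETS and YY1 patterns was found in 42 of the 75 genes (56.0%, against 38.1% and 17.9%). Median GC content was 58.3% in the respiratory chain windows, 61.7% in those of expressed genes and 52.7% in all. These are matches of letters, given as a description with no test of a difference in share.

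**Figure D1:**
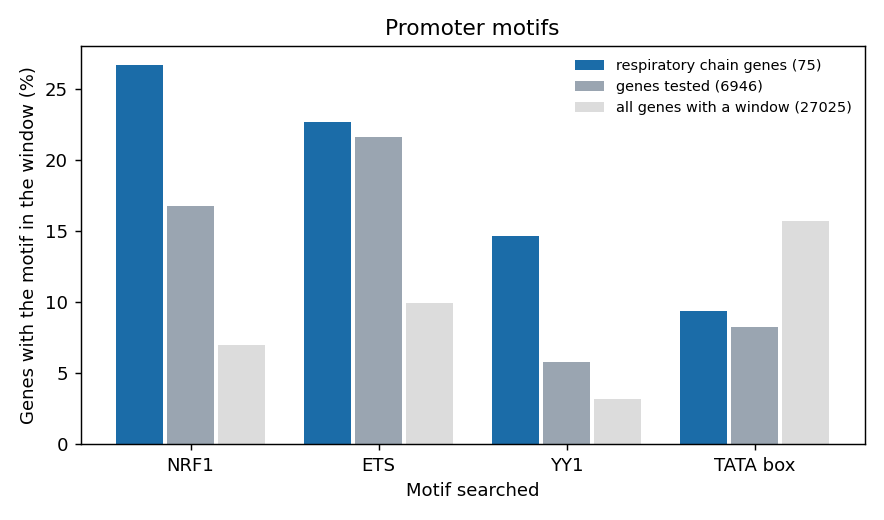
Share of genes, in percent, whose 300-base RefSeq promoter window holds the letters of each motif. Bars are for respiratory chain genes, for genes that passed the level filter together with all matched respiratory chain genes, and for all genes in the table. The NRF1 bars read 26.7%, 16.7% and 7.0%, and the YY1 bars 14.7%, 5.79% and 3.19%.

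By complex, the counts below were not tested against each other. In complex V, 12 of 16 matched genes held at least 1 of the 3 patterns, among them Atp5j, the coupling factor 6 of the stator stalk, which shares its locus with Gabpa. In complex I it was 21 of 37 genes, in complex II 3 of 3, in complex III 3 of 5 and in complex IV 3 of 13. All 11 YY1 matches lay in complexes I and V, 7 and 4 genes respectively. Between the libraries, the 20 genes with the NRF1 letters that passed the level filter had a median log2 ratio of -0.09 and the 52 without them 0.01, the 17 with ETS letters -0.06 and the 55 without -0.01, and the 11 with YY1 letters -0.01 and the 61 without -0.02.

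As a group the respiratory chain genes were highly expressed and stood at nearly the same level in both libraries. The ratio used throughout is log2((mutant + 1)/(control + 1)) of RPKM, and the added 1 makes differences of low genes look smaller than they are. It was taken for the 9779 genes that reached 1 RPKM in either library, and 84 of the 90 respiratory chain genes passed this filter. Summed over those 84, the level was 1977 RPKM in the control library and 1983 in the mutant. That was 1.79% and 1.85% of the summed RPKM left after failed and high-data rows were taken out. The median gene stood at 14.5 RPKM in the control and 15.8 in the mutant, against 3.60 and 3.43 for all genes that passed, and 39 of the 84 were among the top 10% of control levels.

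The median log2 ratio of the 84 genes was -0.01, with 41 above 0 and 43 below, and the median of all 9779 genes was -0.05. On a TPM scale each library was scaled to the same sum, which included the 54 failed or high-data rows left out elsewhere. All rows summed to 118957 RPKM in the control library and 107972 in the mutant. The 9779 genes summed to 108775 and 105305, which was 98.6% and 98.5% of the level without those rows. The shift between the scales therefore depends in part on rows left out elsewhere. On the TPM scale both medians were higher, 0.13 and 0.08, with 64 of 86 respiratory chain genes above 0. The sign of the group's own median therefore differed between the scales. Its median lay above that of all genes by 0.04 with RPKM and 0.05 with TPM. Its middle 50% of genes spanned log2 ratios from -0.12 to 0.16, a width of 0.28, against 0.34 for all genes. Within 1.5-fold lay 81 of 84 (96.4%, against 93.9% of all genes), and within 1.25-fold 66 (78.6%, against 76.2%). Across the 84 genes, which are not independent and share both libraries, Pearson's r of log2(RPKM + 1) was 0.98, and it was 0.96 over all genes. Of the 84, 4 passed the filter through 1 library only (Ndufs5, Cox4i2, Atp5s and Atp5sl), and the 80 at 1 RPKM or more in both had a median log2 ratio of -0.01 too.

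**Figure D2:**
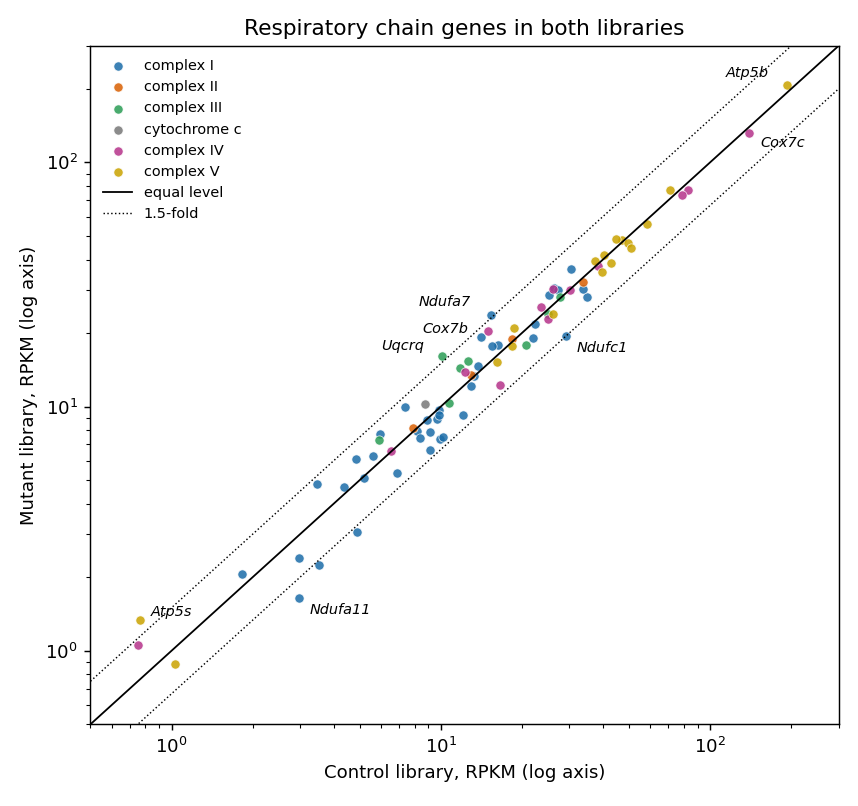
Level of each respiratory chain gene in the control library (horizontal axis, RPKM, log scale) and in the mutant library (vertical axis, RPKM, log scale), 1 point per gene that passed the filter, coloured by complex. Points follow the line of equal levels from Atp5b at 194 and 208 RPKM downwards. Ndufs5, at nearly 0 in the control, is not drawn.

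At 1.5-fold or more on the log2 scale above, 3 of the 84 genes (3.57%) were higher in the mutant library, where 2.55% of all genes were, and 0 were lower, where 3.57% of all genes were. In either direction that makes 3 genes, and 6.12% of all genes. The 3 were Ndufa7, Uqcrq and Ndufs5. Ndufs5 passed the filter through the mutant library only, its ratio is uncertain, and together with its near-identical copy it ran the other way, as given with complex I. Of the 80 genes at 1 RPKM or more in both libraries, 2 (2.5%) were 1.5-fold higher, a share close to that of all genes. With the same limit, Ndufs5 was the only one at least 2-fold apart, which 1.69% of all genes were, 0.89% of them higher and 0.798% lower. No respiratory chain gene among the 52 with at least 50 control reads passed 1.5-fold in either direction, where 0.32% of all genes with that many reads were higher and 2.07% lower.

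Counting error alone was also read from 95% Clopper-Pearson intervals of the plain fold, computed from approximate reads. They rest on the estimated 44.3 bases per read: at 36 bases 10 genes lay above 1 and 8 below, and at 100 bases 1 above and 1 below, so most of the calls named next depend on that estimate. These intervals compare the reads of the 2 libraries and not the genotypes. At 44.3 bases they lay above 1 for 8 genes (9.52%, where 7.84% of all genes did) and below 1 for 4 (4.76%, where 15.9% did). The 8 were Ndufa7, Ndufb8, Ndufs4, Uqcrc2, Uqcrq, Cox7b, Atp5a1 and Atp5b, and the 4 were Ndufc1, Ndufaf3, Ndufa11 and Cox5a. The plain fold, without the added 1, reached 1.5 upwards for 3 genes (Ndufa7, Uqcrq and Atp5s, where 5.58% of all genes did so) and downwards for 4 (Ndufc1, Ndufaf3, Ndufaf1 and Ndufa11, where 8.94% did), leaving out genes with under 1 read in a library.

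**Figure D3:**
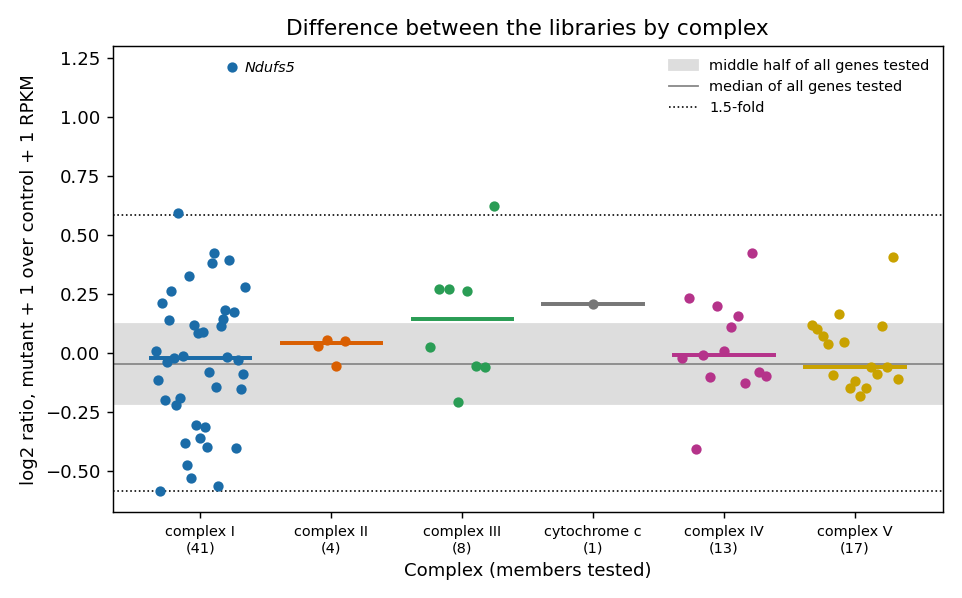
log2((mutant + 1)/(control + 1)) of RPKM (vertical axis) for each respiratory chain gene that passed the filter, by complex (horizontal axis), 1 point per gene, with the median of each complex. Most points lie between -0.58 and 0.62 and Ndufs5 stands at 1.21.

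Complex I, the entry point for NADH, summed to 518 RPKM in the control and 517 in the mutant (fold 0.998, counting interval 0.947 to 1.04), with a median log2 ratio of -0.02 over 41 genes. Its 7 nuclear core genes, which carry the flavin and the iron-sulfur clusters of the electron path, had median levels of 9.13 RPKM in the control and 7.98 in the mutant and a median log2 ratio of -0.03. Ndufv1, which binds NADH and the flavin, stood at 8.39 and 7.45 RPKM. Ndufs7, which holds the last cluster before ubiquinone, had the lowest ratio of the core genes, with 9.13 RPKM in the control and 6.66 in the mutant. Ndufv2, which holds another cluster of the NADH-binding module, stood at 9.85 and 9.2 RPKM, Ndufs3 at 9.81 and 9.69 and Ndufs8 at 8.17 and 7.98. Ndufs1, the largest subunit, stood at 5.60 and 6.30 over 4 transcript rows. The core genes named here thus lay on both sides of equal levels.

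The accessory subunits surround the core and serve its assembly and stability. These 30 genes had median levels of 12.5 RPKM in the control and 11.1 in the mutant. The most abundant was Ndufb4, a membrane-arm subunit, at 35.0 RPKM in the control and 28.0 in the mutant (fold 0.80, interval 0.633 to 1.02), followed by Ndufb9, another membrane-arm subunit, at 33.7 and 30.4. Ndufab1, the mitochondrial acyl carrier protein that also acts in fatty acid synthesis, stood at 9.90 and 7.37. Ndufa13, also known as GRIM-19, stood at 22 and 19.0, and its locus overlaps another gene.

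Further accessory genes above 20 RPKM lay close to equal levels. Ndufa3 stood at 27.2 RPKM in the control and 30.1 in the mutant, Ndufa12 at 26.4 and 30.7, Ndufs6, which is needed late in assembly, at 25.3 and 28.7, and Ndufa2 at 22.4 and 21.8. In the middle of the range, Ndufc2 stood at 16.4 and 17.8 and Ndufb6 at 12.9 and 12.2. The membrane-arm genes Ndufb2 (12.1 and 9.2 RPKM) and Ndufb5 (10.2 and 7.51) had log2 ratios of -0.36 and -0.40. At the low end, Ndufb10 stood at 6.87 and 5.37, Ndufa5 at 5.19 and 5.10, Ndufv3 at 4.83 and 6.07, Ndufb3 at 4.36 and 4.70 and Ndufb7 at 3.47 and 4.82. Ndufa10, Ndufa8 and Ndufa9 lay between 8.88 and 9.72 RPKM in the control and between 7.90 and 8.92 in the mutant.

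Ndufa7, an accessory subunit of the matrix arm (mm9 chr17:33961559-33975258), stood at 15.3 RPKM in the control and 23.6 in the mutant. That is a log2 ratio of 0.60 and a fold of 1.54 (interval 1.11 to 2.2), resting on about 39.7 control reads. Ndufb8 of the membrane arm and Ndufs4 of the matrix arm were also higher with an interval above 1 but within 1.5-fold. Ndufb8 stood at 14.1 and 19.3 RPKM (fold 1.37, interval 1.02 to 1.88). Ndufs4, whose loss in mice gives a Leigh-like encephalopathy, stood at 7.36 and 9.98 RPKM (fold 1.36, interval 1.04 to 1.80).

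Other accessory genes were lower in the mutant library. Ndufc1, a small membrane-arm subunit (mm9 chr3:51209401-51212877), stood at 29.2 RPKM in the control and 19.4 in the mutant, 1.5-fold lower (interval 1.13 to 1.97), with a log2 ratio of -0.56. Ndufa11, a membrane-arm subunit (mm9 chr17:56857185-56863671), stood at 2.97 and 1.65 RPKM, 1.80-fold lower (interval 1.25 to 2.54), and its log2 ratio of -0.58 fell just short of 1.5-fold only through the added 1. Ndufa6, at the same control level of 2.97 RPKM, stood at 2.40 in the mutant. Subunits of the same arm therefore differed in direction between the libraries.

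The 4 complex I assembly factors were low in both libraries. Ndufaf3 stood at 4.87 RPKM in the control and 3.06 in the mutant, 1.59-fold lower (interval 1.01 to 2.42), and Ndufaf1 at 3.52 and 2.25, 1.56-fold lower (interval 0.99 to 2.39). Ndufaf2 stood at 5.97 and 7.73 and Ndufaf4 at 1.82 and 2.06, the other way. Together with Atp5s and Atp5sl, the assembly and coupling factors had a median log2 ratio of 0.00.

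Ndufs5, a small subunit of the intermembrane-space side, was listed at nearly 0 RPKM in the control (0.000649) and at 1.32 in the mutant, where about 23.0 reads lay on it. Its near-identical copy BC002163, a transcribed pseudogene, is listed at 2 places. On chromosome 16 it stood at 11.7 and 6.57 RPKM, and in the row that overlaps Ndufs5 on chromosome 4 (mm9 chr4:123389953-123395429 for Ndufs5) at 1.65 RPKM in the control and nearly 0 in the mutant, with a low-data status. The 3 rows together summed to 13.3 RPKM in the control and 7.89 in the mutant, the opposite direction to Ndufs5 alone. How reads that match several places were shared is not stated in the sources used here, so the ratio of Ndufs5 is uncertain and no fold is given for it.

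Complex II, succinate dehydrogenase, links the citric acid cycle to the chain, and its 4 genes had log2 ratios between -0.06 and 0.05. They summed to 73.0 RPKM in the control and 72.9 in the mutant (fold 0.999, interval 0.924 to 1.10). Sdha, the flavoprotein that binds succinate, stood at 18.4 and 18.9 RPKM (fold 1.02, interval 0.902 to 1.16). Sdhb, the iron-sulfur subunit, stood at 7.87 and 8.21 (fold 1.04). Of the membrane anchors, Sdhc stood at 33.7 and 32.4 (fold 0.961, interval 0.831 to 1.12) and Sdhd at 12.9 and 13.4 (fold 1.04). Levels within the complex were unequal in both libraries, with Sdhc at 4.29 times the level of Sdhb in the control and 3.95 times in the mutant.

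Complex III summed to 125 RPKM in the control and 134 in the mutant (fold 1.07), and the fold of its summed reads had an interval of 0.953 to 1.13. Its 8 genes had a median log2 ratio of 0.15, and 5 lay above 0. Uqcrq, a small membrane subunit (mm9 chr11:53242450-53244333), stood at 10.1 RPKM in the control and 16.1 in the mutant, a log2 ratio of 0.62 and a fold of 1.59 (interval 1.07 to 2.46) on about 27.1 control reads. The 2 large core proteins differed in direction. Uqcrc1 stood at 20.8 and 17.9 RPKM (fold 0.861, interval 0.735 to 1.01), while Uqcrc2 stood at 12.6 and 15.4 (fold 1.22, interval 1.01 to 1.47), and the locus of Uqcrc2 overlaps Pdzd9.

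Uqcrfs1, the Rieske iron-sulfur protein that passes electrons towards cytochrome c, stood at 10.7 and 10.3 RPKM. The most abundant genes of the complex were Uqcr10 at 27.6 and 28.2 and Uqcrh, the hinge protein, at 25.1 and 24.0. Uqcr11 stood at 11.8 and 14.4, and Uqcrb at 5.90 and 7.33, though Uqcrb has near-identical copies elsewhere in the genome. Without Uqcrb and Uqcrc2 the median log2 ratio of the complex was -0.01, so the higher median depends on which genes are counted.

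Cycs, which codes for cytochrome c, the mobile carrier that also takes part in apoptosis, stood at 8.72 RPKM in the control and 10.2 in the mutant (fold 1.17, interval 0.986 to 1.41).

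**Figure D4:**
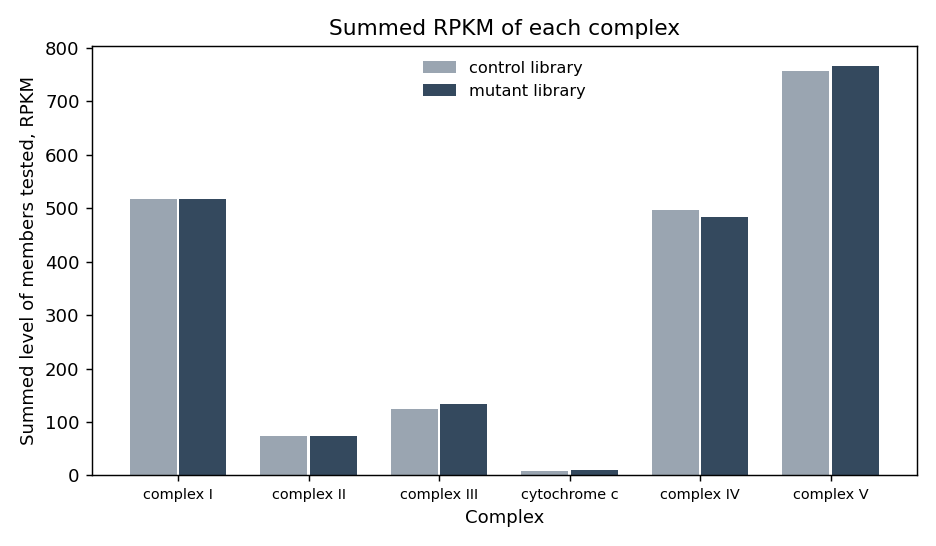
Summed RPKM (vertical axis, from 0) of the genes of each complex that passed the filter, in the control and the mutant library, 1 bar per library. The pairs of bars are close in height, from 757 and 765 RPKM in complex V to 8.72 and 10.2 for cytochrome c.

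Complex IV, cytochrome c oxidase, summed to 496 RPKM in the control and 484 in the mutant (fold 0.976, interval of the reads 0.929 to 1.04), with a median log2 ratio of -0.01 over 13 genes. Cox7c, a small membrane subunit, was the second most abundant respiratory chain gene, at 140 RPKM in the control and 133 in the mutant (fold 0.946, interval 0.843 to 1.06). Cox6a1 at 82.8 and 77.2 and Cox8a at 78.7 and 73.6 followed. Cox4i1, the isoform that binds the regulatory adenine nucleotides, stood at 38.2 and 37.7, and Cox5b at 30.1 and 30.0. Cox6b1, which faces cytochrome c, stood at 26.1 and 30.2, and Cox6c at 23.5 and 25.5. These abundant subunits differed by less than 1.25-fold.

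Of the complex IV genes, 2 had a counting interval off 1, in opposite directions. Cox7b (mm9 chrX:103211039-103217789), whose human counterpart is mutated in an X-linked syndrome, stood at 14.9 RPKM in the control and 20.4 in the mutant (fold 1.36, interval 1.08 to 1.74). Cox5a, a matrix-side subunit, stood at 16.5 and 12.2, 1.35-fold lower (interval 1.01 to 1.78). The other X-linked genes of the group were Ndufa1 at 13.3 and 13.4 RPKM and Ndufb11 at 13.7 and 14.6. The X-inactivation RNA Xist stood at 5.21 and 30.0 RPKM. Of the Y-linked genes, Ddx3y stood at 3.28 and 0, Kdm5d at 2.71 and 0, Eif2s3y at 1.81 and 0 and Uty at 2.15 and nearly 0. The pools thus differed in sex-linked RNA, and the part of this in the ratio of Cox7b or of any other gene was not tested.

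Several complex IV subunits exist as a general isoform and a tissue-restricted one, and the molar libraries held mainly the general forms. Cox4i1 stood at 51.0 times the level of Cox4i2, an oxygen-responsive isoform known from lung, in the control and 35.6 times in the mutant, with Cox4i2 itself at 0.749 and 1.06 RPKM. The heart and skeletal muscle isoforms Cox6a2 (0.323 and 0.0476 RPKM), Cox7a1 (0 and 0.0753) and Cox8b (0 and 0) did not pass the level filter, nor did Cox7b2 and Cox8c, both known from testis and both listed at 0 in each library. Cox7a2, the general counterpart of Cox7a1, stood at 12.3 and 13.9, and Cox7a2l, which takes part in joining complexes III and IV, at 25.1 and 22.9. In complex I, Ndufa4 stood at 30.4 and 36.7 RPKM (fold 1.21, interval 0.955 to 1.54); its product is now placed in complex IV. Its hypoxia-induced relative Ndufa4l2 was listed at 0 and 0.373 and did not pass the filter.

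Cox6b2, the isoform of Cox6b known from testis, was the exception among the restricted forms. It stood at 6.51 RPKM in the control and 6.55 in the mutant, and Cox6b1 at 4.01 times its level in the control and 4.61 times in the mutant. Of its transcript rows, 1 held 6.51 and 2.78 RPKM and another nearly 0 and 3.77, so the reads were placed on different rows in the libraries while the sum was level.

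Complex V, ATP synthase, held the largest part of the RNA, with 757 RPKM in the control and 765 in the mutant (fold 1.01) and an interval of 1.01 to 1.08 around a fold of 1.04 for its summed reads. Its median log2 ratio over 17 genes was -0.06. The parts of the enzyme overlapped in their ratios, and differences between them were not tested. Of the 5 F1 genes, 4 had a log2 ratio above 0, with a median of 0.07, while the c ring genes had a median of -0.12, the stator stalk genes of -0.10 and the other membrane genes of -0.06. None of the 17 reached 1.5-fold on the log2 scale, and on the TPM scale the median of the complex was 0.08.

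Atp5b, the catalytic beta subunit (mm9 chr10:127520363-127527444), was the most abundant gene of the group, at 194 RPKM in the control and 208 in the mutant (fold 1.08, interval 1.03 to 1.13, on about 1956 control reads). Its locus overlaps the microRNA gene Mir677. Atp5a1, the alpha subunit, stood at 71.0 and 77.1 (fold 1.09, interval 1.01 to 1.17). Alpha and beta subunits are present in equal number in the F1 head, yet Atp5b stood at 2.73 times the level of Atp5a1 in the control and 2.70 times in the mutant. Atp5c1, the central gamma subunit, stood at 37.4 and 39.4, and the small head subunits Atp5d and Atp5e at 46.9 and 48.2 and at 49.8 and 46.6. Against Atp5c1 the level of Atp5b was 5.18 and 5.28 times as high. These proportions within the head were nearly equal in the libraries.

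The c ring, which turns as protons pass, is encoded by 3 genes that give the same mature protein. Atp5g1 stood at 40.4 RPKM in the control and 41.8 in the mutant, Atp5g2 at 43.0 and 38.7, and Atp5g3 at 26.2 and 24.0. In the stator stalk, Atp5h stood at 50.9 and 44.8 (fold 0.88, interval 0.742 to 1.05), Atp5o at 58.4 and 55.9, Atp5j at 39.6 and 35.7 and Atp5f1 at 18.6 and 21.1. Of the other membrane genes, Atp5l stood at 44.8 and 48.5, with 9 near-identical genes elsewhere, Atp5j2 at 18.4 and 17.7 and Atp5k at 16.2 and 15.2. Atp5sl was low, at 1.03 and 0.882. Atp5s, a coupling factor, stood at 0.761 and 1.34 RPKM (fold 1.76, interval 0.77 to 4.91) on about 6.07 control reads, so its difference was not detectable at this depth.

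**Figure D5:**
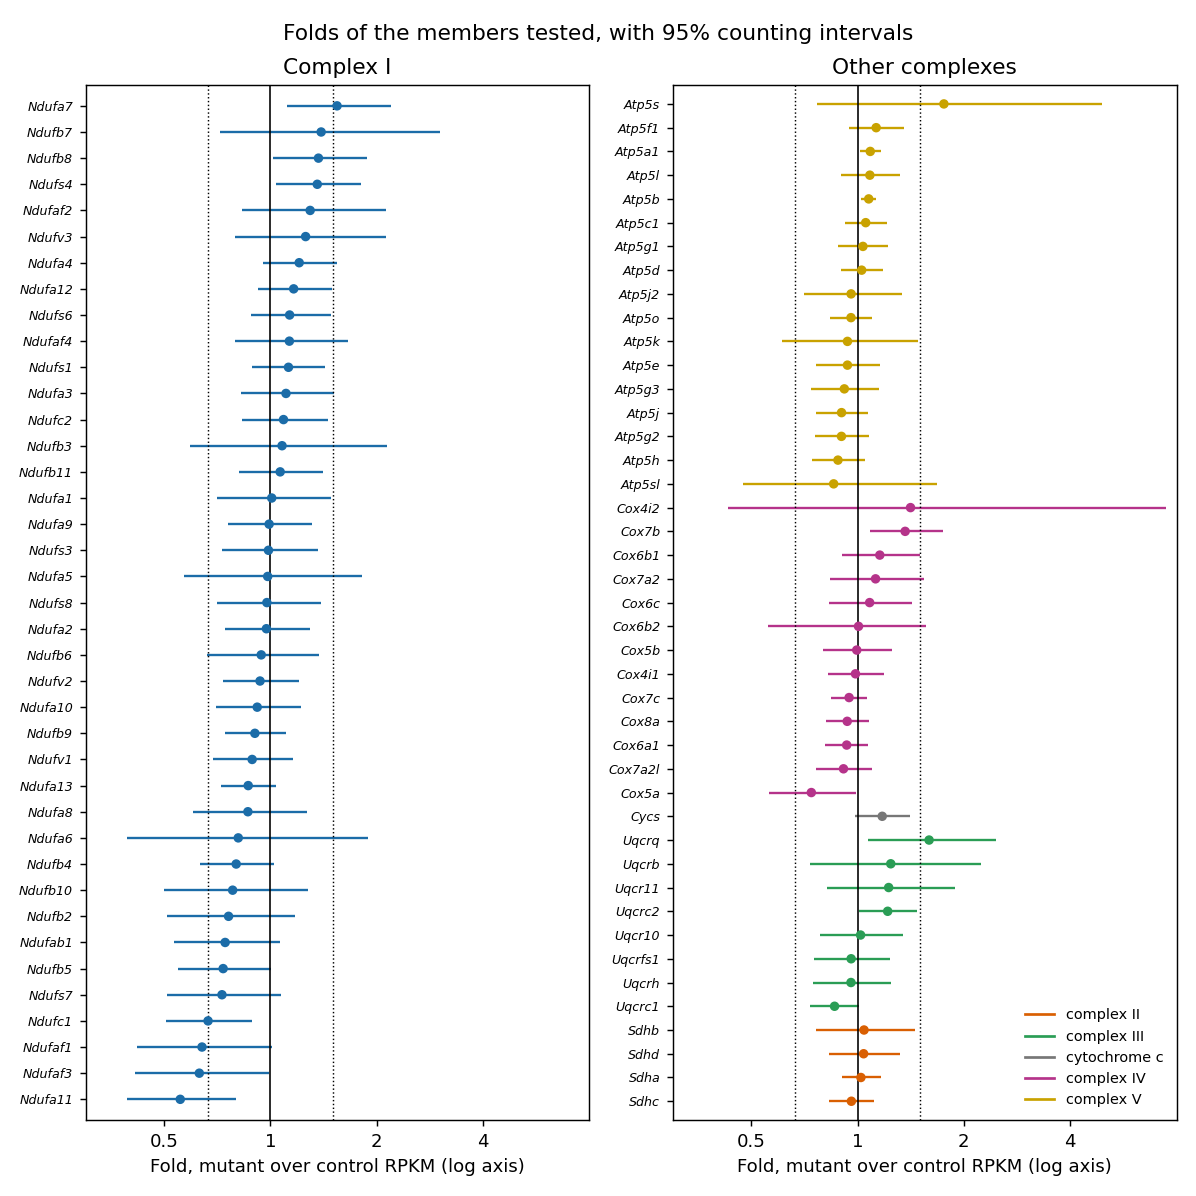
Plain fold of mutant over control RPKM for respiratory chain genes that passed the filter, with bars for the 95% Clopper-Pearson counting interval, on a log axis, complex I on the left and the other complexes on the right. Intervals lie above 1 for 8 genes and below 1 for 4, and the interval of Atp5b runs from 1.03 to 1.13. Ndufs5, for which no fold is given, and 1 gene not reported singly are not drawn.

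Of the 90 genes, 14 had a near-identical gene elsewhere in the genome (at least 95% identity over at least 50% of the transcript, from GENCODE transcripts), 10 shared their locus with another listed gene and 22 had either. The deposited values could not be split between such copies. The 64 genes that passed the filter and had neither gave a median log2 ratio of -0.01 with 2 at 1.5-fold higher, Ndufa7 and Uqcrq, and 0 lower. The 20 with a copy or an overlap gave 0.06. Transcripts of the group were short, with a median of 710 bases against 2868 for all genes that passed, and the log2 ratio showed no trend with length across the 84 genes (Spearman's rho -0.01, a description over genes that share both libraries).

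The wider mitochondrial programme was described with lists of genes outside the rule. Of 3 further subunits or regulators, Cyc1, the heme-bearing cytochrome c1 of complex III, stood at 19.4 and 21.3 RPKM, Usmg5 of ATP synthase at 27.5 and 21.7 and the ATPase inhibitor Atpif1 at 26.1 and 32.5, with 0 at 1.5-fold. Of 22 assembly factors that passed the filter, 1 was higher and 0 lower at 1.5-fold, where 2.55% and 3.57% of all genes were. Their median log2 ratio was -0.16. As a plain fold, 4 were at least 1.5-fold higher and 1 lower, where 5.58% and 8.94% of all genes were. The counting interval lay above 1 for 3 (13.6%, against 7.84% of all genes) and below 1 for 0 (against 15.9%). However, 20 of the 22 had under 50 control reads. The assembly factor past 1.5-fold on the log2 scale, picked out after its values were seen, was Cox19. This copper-handling factor of complex IV stood at 0.573 and 2.56 RPKM. It passed the filter through the mutant library only. With about 2.35 control reads, its fold had a counting interval of 1.29 to 29.9, so its size is uncertain. Atpaf1, a chaperone of F1, stood at 5.79 and 6.90.

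Enzymes of the pyruvate dehydrogenase complex and citric acid cycle gave 0 of 18 genes at 1.5-fold in either direction and a median log2 ratio of -0.01. Pdha1, the X-linked pyruvate dehydrogenase subunit, stood at 7.21 and 9.70 RPKM, and Idh2, the mitochondrial NADP-dependent isocitrate dehydrogenase, stood at 12.1 and 10.0. Glycolysis gave 0 of 16 genes and a median of -0.07, with the glucose transporter Slc2a1 at 14.3 and 11.7 and the enolase Eno1 at 7.2 and 6.17. However, 14 of the 16 glycolysis genes lay below 0 and 2 above. Of all 9779 genes, 5623 lay below 0 and 4156 above, with a median of -0.05. The counting interval lay below 1 for 5 of them (31.3%, against 15.9% of all genes) and above 1 for 0. As a plain fold, 2 glycolysis genes were at least 1.5-fold lower, where 8.94% of all genes were. Carriers, porins and antioxidant enzymes gave 0 of 9 and a median of 0.00, with the ADP/ATP carrier Slc25a4 at 58.5 and 47.5 and the porin Vdac3 at 17.3 and 19.8. No gene of these lists was thus past 1.5-fold on the log2 scale.

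Among regulators of mitochondrial biogenesis, 0 of 10 genes passed 1.5-fold on the log2 scale with the added 1, and 2 did so upwards as a plain fold. These were Gabpb1 (fold 1.53, interval 1.09 to 2.11) and Tfb1m, at 0.870 and 1.55 RPKM (fold 1.79, interval 0.792 to 4.91). The factors whose letters were searched in the promoters were all measured. Nrf1 stood at 3.40 RPKM in the control and 2.69 in the mutant, Gabpa at 10.2 and 10.0, its partner Gabpb1 at 3.01 and 4.61, and Yy1 at 10.1 and 8.26. Tfb2m, a mitochondrial transcription factor, stood at 6.65 and 5.24. The coactivator Ppargc1a, known for driving mitochondrial biogenesis in muscle and brown fat, was low in both, at 0.716 and 0.523.

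The 76 genes of the mitochondrial ribosome, which makes the mitochondrially encoded subunits, included 8 at 1.5-fold higher and 2 lower, with a median log2 ratio of 0.01. Mrps18c stood at 3.88 and 8.68 RPKM and Mrps5 at 3.14 and 6.31. Of 20 protein import genes, which bring respiratory chain subunits into the organelle, 2 were higher and 1 lower at 1.5-fold. The lower one was Tomm5, a small subunit of the outer-membrane translocase, at 21.5 and 10.7 RPKM, and Timm17b, an inner-membrane translocase subunit, stood at 7.39 and 5.01. Beside these lists, 2.55% of all genes were at 1.5-fold higher and 3.57% lower. However, 60 of the 76 ribosome genes and 13 of the 20 import genes had under 50 control reads, and of all genes with so few reads 5.19% were higher and 5.35% lower.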

How the data were processed

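RNA-seq was available as 1 pooled library per genotype, Osr2+/- control and Osr2-/- mutant. The submitters' processing notes list Bowtie 0.12.7, TopHat 1.4.1 and build mm9, and the file names point to Cufflinks, with no version stated. Lanes in the file names differ by genotype, so the effects of lane and genotype cannot be told apart. The title speaks of wild type, the sample label of Osr2+/-, which was followed. RPKM values, scaled to mapped reads, were used as the authors deposited them in 28107 transcript rows per table. Coverage, the unscaled mean signal over each transcript, was also deposited by the authors with the transcript length.

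Tables were joined by transcript, gene, locus and length. Rows whose status was failed or high-data (54 rows of 18 genes, none of a respiratory chain gene) were left out, the rest were summed per gene symbol (22054 genes), and log2((mutant + 1)/(control + 1)) was taken at 1 RPKM or more in a library. Starts are counted from 1. Approximate reads are coverage times length over 44.3 bases, the median of products between 20 and 66 bases. They give 95% Clopper-Pearson intervals that cover counting error only. For genes with several rows the interval is that of the read ratio, which can differ from the RPKM fold. They lie on listed transcripts at 1.45 and 7.88 M. With 1 library a group no p-value was computed. Folds of 1.5 and 2 were the call rules. Copies were found with BLAST 2.17.0. Calculations used Python 3.11.15, pandas 2.3.3 and scipy 1.17.1 and were tested on simulated data.

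The genes, gene lists and marker lists were chosen with earlier results of these data known. Named genes were Osr2, in each complex the 2 highest control levels and the 2 largest log2 ratios at 5 RPKM or more, every gene at 1.5-fold, the isoform pairs, genes listed at 0, Sdha to Sdhd, Cycs and up to 2 genes per list. The values of 1 gene are not reported singly here. Others were named by role or interval after their values were seen. Alternatives changed the pseudocount, level filter, scale, centring, transcript rows, length, read length and the genes counted. For the TPM scale the sum was taken before failed and high-data rows were left out, and the filter and pseudocount were 1 TPM.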

Additional observations from a re-analysis of the deposited data

How the results depend on the processing

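No paired analysis was possible because each genotype had 1 library. With no replicates, no alternative leaves out a library, and depth in the control limits the low genes: 32 of the 84 respiratory chain genes had under 50 control reads. Of 157 alternative values for group results 131 stayed within 1.5 times the count or within counting error, as did 260 of 262 for single genes. The single-gene count says little about stability, because a filter on level or length cannot change the ratio of a single gene. Counting error is also wide for low genes. Ndufs5 was counted as unchanged although its log2 ratio went from 1.21 to 3.82 with a pseudocount of 0.1 RPKM. On the TPM scale, where the median of all genes moved from -0.05 to 0.08 and the higher share of all genes past 1.5-fold from 41.6% to 60.1%, the median log2 ratio was 0.13 over all respiratory chain genes, and 0.12, 0.18, 0.29, 0.13 and 0.079 for complexes I to V. Summed levels there gave log2 ratios of 0.14, 0.14, 0.24, 0.10 and 0.16. The filter and the added 1 were then 1 TPM, a lower level than 1 RPKM, and 13999 genes passed, against 9779 with RPKM. The TPM sum also included the failed and high-data rows. The effects of scale, of the lower limits and of those rows were not separated. TPM also gave 7 of 86 genes at 1.5-fold higher (Atp5s, Ndufa4l2, Ndufa7, Ndufb7, Ndufb8, Ndufs5 and Uqcrq), where 14.4% of all genes were. It gave 2 lower (Cox6a2 and Ndufa11), where 9.53% of all genes were. The 3 at least 2-fold apart were Cox6a2, Ndufa4l2 and Ndufs5, and all 3 rest on few reads. Cox6a2 had about 1.1 reads in each library, Ndufa4l2 had 0 control reads and Ndufs5 nearly 0. Cox6a2 and Ndufa4l2 did not pass the RPKM filter. A pseudocount of 0.1 RPKM gave 3 of 84 lower (Ndufa11, Ndufaf1 and Ndufaf3), where 8.51% of all genes were, and the highest transcript row gave 1 (Cox6b2). At 5 RPKM or more, 0 were 2-fold apart, since Ndufs5 is below that level. Centring on the median of all genes gave 0.036 over the respiratory chain genes, and for complex V a median of -0.012 and a summed log2 ratio of 0.061. With transcripts of at least 300 bases the complex V median was -0.0097. In 2 alternatives chosen after seeing the data, the complex III median without copies or overlaps was -0.014, and 0 genes with at least 50 control reads were 1.5-fold higher. At 36 bases per read 8 intervals lay below 1, and at 100 bases 1 lay below and 1 above.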
